A study of Mus musculus with 2 samples.

Results

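The clustered protocadherin genes are 57 protein-coding genes that stand side by side on mouse chromosome 18 in an alpha, a beta and a gamma cluster. They were taken from the GENCODE M21 annotation of mm10 as the genes whose symbol is Pcdha, Pcdhac, Pcdhb, Pcdhga, Pcdhgb or Pcdhgc followed by a number, out of 21938 protein-coding genes. The alpha cluster gave 14 members, the beta cluster 22 and the gamma cluster 21. Pcdhgb8 was left out because the annotation calls it a polymorphic pseudogene. GENCODE gives 2 records the symbol Pcdha11, and the one that starts at 37005203 is called Pcdha10 here, as RefSeq names it. The members run from 36930184 to 37841873 on the plus strand, a span of 911.7 kb, and were examined with 200 kb on each side.

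The study used DNase-seq, in which the enzyme DNase I cuts open chromatin, on whole limb of the mouse embryo at day 14.5. The embryos were of strain B6NCrl, males and females were pooled, and the labels name no treatment or altered allele. There was 1 group of 2 biological replicates. Since 1 donor identifier stands in the labels of both libraries, it is open whether they stem from different embryos. The authors' deposited peaks are 150 bp wide and carry a signal, a whole number in a unit of their own, for each library separately. Replicate 1 had 208674 peaks on the autosomes, X and Y with a median signal of 42, and replicate 2 had 196593 with a median of 31. Of the peaks of replicate 1, 61.2% were shared, meaning that a peak of replicate 2 covered 50% of it or more. The number of reads is unknown, so a missing peak says only that none was called at an unknown depth. With 1 group there was no condition to compare, and every count below is a description with no test.

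Clustered protocadherins are cadherin-like adhesion proteins of the cell surface, best known from neurons, where different cells show different combinations of isoforms. In the alpha and gamma clusters each member has its own promoter and its own large first exon, the variable exon, which is spliced to constant exons shared by the whole cluster. Beta members have a single coding exon and no shared constant exons. Each neuron is thought to switch on a few variable promoters at random, while the last members of the alpha and gamma clusters, the C-type genes Pcdhac1, Pcdhac2, Pcdhgc3, Pcdhgc4 and Pcdhgc5, are controlled in other ways. The protein CTCF, with cohesin, is known to loop distant enhancers to the chosen promoters. Nerves reach the limb as axons, and the cell bodies of the neurons that serve it lie outside it.

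Shared peaks were less common at the members' starts than at those of all genes, and the members' peaks were mostly weak. A window of 500 bp on each side of the transcription start site (TSS, here the outermost 5′ end of the gene record) held a shared peak in 27 of 57 members (47.4%), while 59.1% of all protein-coding genes had one. The libraries differed. Replicate 1 had a peak at 49 members (86.0%) against 64.2% of all genes, and replicate 2 at 28 members (49.1%) against 62.7%. The excess over all genes was thus in replicate 1 alone, and 21 members had a peak there and none in replicate 2. No member had a peak in replicate 2 alone. The members without a peak in either library were 8: Pcdha1, Pcdha6, Pcdha7, Pcdha8, Pcdha10, Pcdhb1, Pcdhb9 and Pcdhgc5. Hotspots, the authors' broader open regions, of both libraries overlapped at 28 members, the 27 above and Pcdhac2, against 62.1% of all genes.

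The clusters differed in how many members were open. In the gamma cluster 14 of 21 members (66.7%) had a shared peak, in the beta cluster 9 of 22 (40.9%) and in the alpha cluster 4 of 14 (28.6%). In replicate 1 the counts were 20 of 21, 20 of 22 and 9 of 14, and in replicate 2 they were 14, 9 and 5. The gamma share was near the 59.1% of all genes, a little above it, and the other clusters lay below it. In replicate 2 the gamma share of 66.7% was likewise near the 62.7% of all genes. In replicate 1 the beta share of 90.9% came close to the gamma share of 95.2%, so the gap between those clusters was one of replicate 2 and of shared peaks. Because whole limbs were used, fewer cells with an open promoter and a less open promoter in each cell cannot be told apart.

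**Figure D1:**
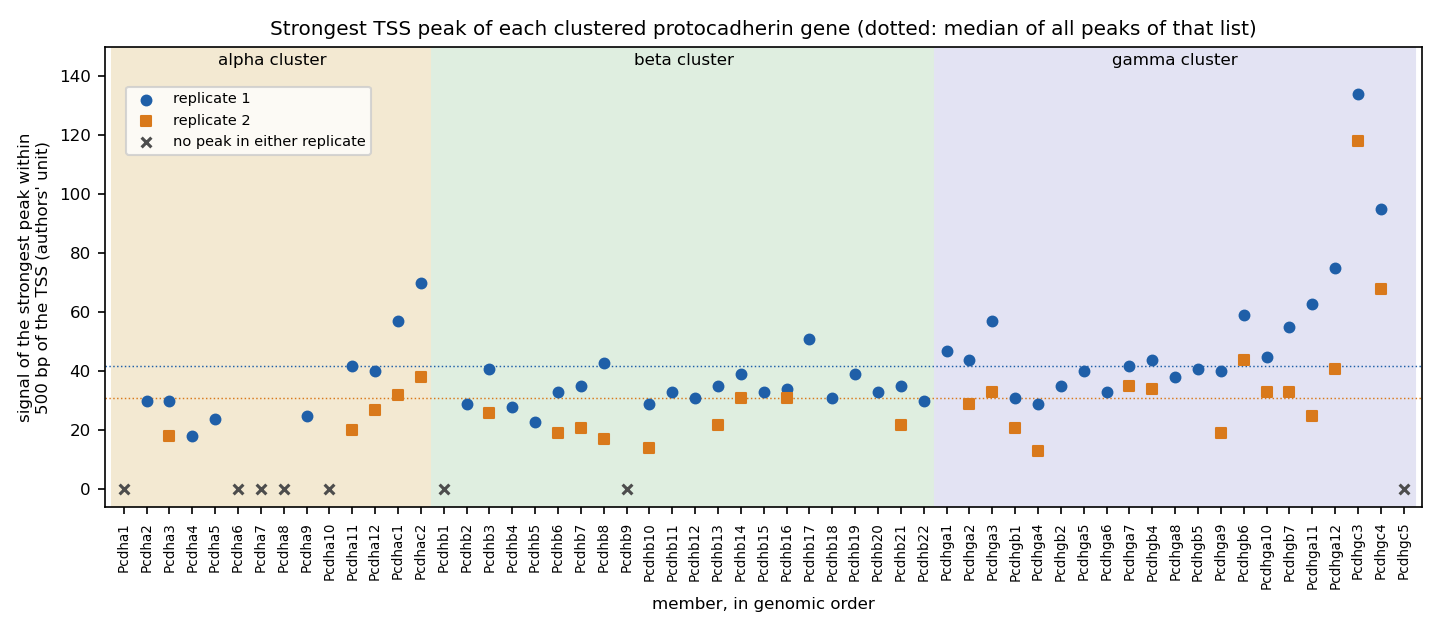
Signal of the strongest peak within 500 bp of the TSS of each member, in the authors' unit, with the members in genomic order and the clusters shaded. Circles are replicate 1, squares replicate 2, crosses members with no peak in either, and dotted lines the median signal of all peaks of each list (42 and 31). Pcdhgc3, with 134 and 118, stands above all other members in both libraries.

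The C-type genes Pcdhgc3 and Pcdhgc4 had the strongest starts of all members, and 1 C-type start had no peak. Pcdhgc3, the C-type gene nearest the gamma A and B genes, reached 134 in replicate 1 and 118 in replicate 2 (chromosome 18, 37806256 to 37806405). It ranked at the 99.1st percentile of all peaks of replicate 1 and the 99.4th of replicate 2. Its neighbour Pcdhgc4 had 95 and 68 in a peak centred 291.5 bp after the TSS in replicate 1 and 271.5 bp after it in replicate 2. These were the strongest member peaks in both libraries, and the percentiles of Pcdhgc4, 91.7 and 90.5, were followed by 83.5 at Pcdhga12 in replicate 1 and 73.3 at Pcdhgb6 in replicate 2.

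Pcdhgc5, the last member of the gamma cluster (TSS at 37819513), had no peak in either library although Pcdhgc4 starts 4.43 kb before it. Pcdhac1, the first C-type gene of the alpha cluster, had a shared peak with 57 and 32 (37089896 to 37090045). Pcdhac2 had a peak in each library, with 70 and 38, but at different places: it was centred 387.5 bp after the TSS in replicate 1 and 147.5 bp after it in replicate 2, so it was not shared. The C-type signals in replicate 1, from 57 to 134, lay above all other alpha members, whose highest was 42 at Pcdha11. Pcdhac1 and Pcdhac2 did not stand above the gamma A and B genes, which reached 75 at Pcdhga12 in replicate 1 and 44 at Pcdhgb6 in replicate 2.

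Among the 18 A and B genes of the gamma cluster, whose variable exons alternate along the cluster, all had a peak in replicate 1 and 12 had a shared one. Pcdhga12, the last A gene, had 75 in replicate 1 and 41 in replicate 2, in a peak centred 330.5 bp after the TSS in both. Pcdhga11 had 63 and 25, Pcdhgb6 59 and 44, Pcdhga3 57 and 33, and Pcdhgb7 55 and 33. The remaining shared ones were weaker in replicate 1: Pcdhga10 had 45 and 33, Pcdhga2 44 and 29, Pcdhgb4 44 and 34, Pcdhga7 42 and 35, Pcdhga9 40 and 19, Pcdhgb1 31 and 21, and Pcdhga4 29 and 13. The first member of the cluster, Pcdhga1, had 47 in replicate 1 and no peak in replicate 2. Pcdhga5, Pcdhga6, Pcdhga8, Pcdhgb2 and Pcdhgb5 were likewise found in replicate 1 alone, with signals of 33 to 41. In replicate 1 the highest values of the A and B genes lay towards the 3′ end of the cluster, next to the C-type genes, with Pcdhga3 near the 5′ end as an exception.

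Beta members were alike and weak. Their strongest signals in replicate 1 ran from 23 at Pcdhb5 to 51 at Pcdhb17, with a median of 33, and in replicate 2 from 14 at Pcdhb10 to 31 at Pcdhb14 and Pcdhb16, with a median of 22. The shared ones were Pcdhb8 with 43 and 17, Pcdhb3 with 41 and 26, Pcdhb14 with 39 and 31, Pcdhb7 with 35 and 21, Pcdhb13 with 35 and 22, Pcdhb21 with 35 and 22, Pcdhb16 with 34 and 31, Pcdhb6 with 33 and 19, and Pcdhb10 with 29 and 14. More beta members, 11, had a peak in replicate 1 alone than had a shared one. Pcdhb17 had the highest beta signal in replicate 1 and no peak in replicate 2. The first member, Pcdhb1, and Pcdhb9 had no peak in either library, and the last, Pcdhb22, had 30 in replicate 1 in a peak 439.5 bp after its TSS.

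Of the 12 alpha members that are not C-type, 3 had a shared peak. Pcdha11 had 42 and 20, Pcdha12 40 and 27, and Pcdha3 30 and 18. Pcdha2, Pcdha4, Pcdha5 and Pcdha9 had a peak in replicate 1 alone, with signals from 18 at Pcdha4 to 30 at Pcdha2. The other 5, Pcdha1 at the 5′ end of the cluster among them, had none. The shared peak that counted for Pcdha12 lay inside its variable exon and not at the promoter. It was centred 561.5 bp after the TSS in replicate 1 and 541.5 bp after it in replicate 2. A weaker peak, with 33 in replicate 1 alone, stood at the promoter (37020016 to 37020165).

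Most member peaks sat just before the start of the gene. The centre of the strongest peak lay between 100 bp before and 50 bp after the TSS in 41 of 49 members in replicate 1 and in 22 of 28 in replicate 2, with medians of -30.5 and -26.0 bp. Over all genes with a TSS peak, 57.8% had the strongest one in that range in each library. In replicate 1, 7 members had it further downstream: Pcdha5, Pcdha12, Pcdhac2, Pcdhb17, Pcdhb22, Pcdhga12 and Pcdhgc4. Pcdhb13 alone had it further upstream there, at -169.5 bp in both libraries.

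**Figure D2:**
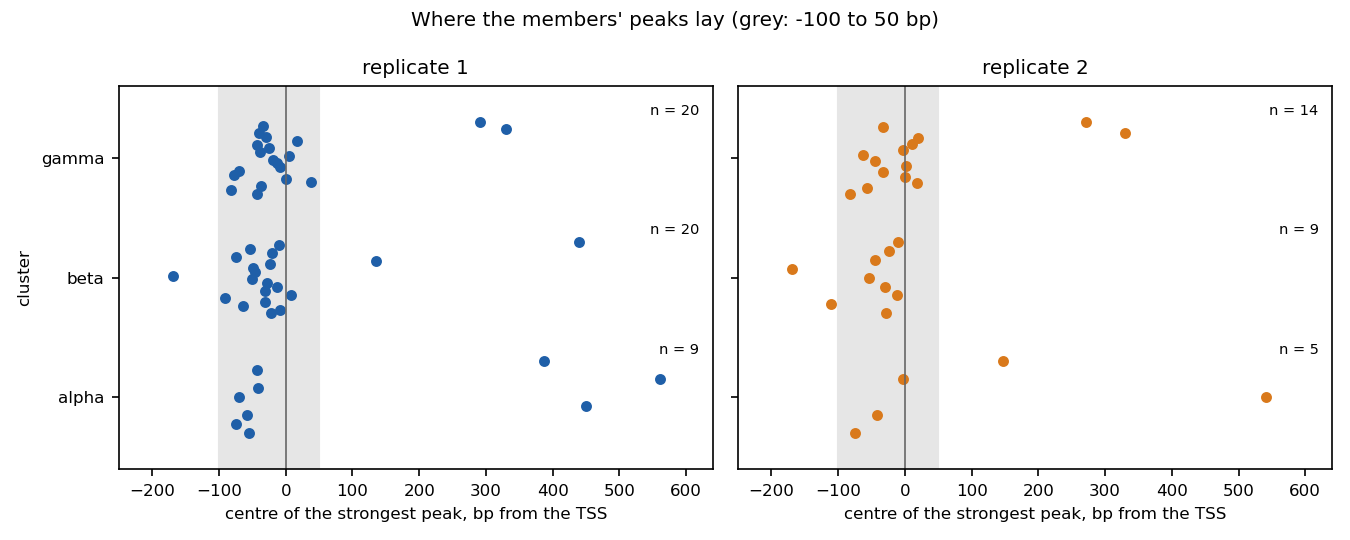
Distance in bp from the TSS to the centre of the strongest peak of each member, by cluster, in replicate 1 (left, 49 members) and replicate 2 (right, 28 members). Points are spread vertically only to be seen, and 41 and 22 of them lie in the grey band from 100 bp before to 50 bp after the TSS.

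The peaks at member starts were far weaker than those at other genes. Among members with a peak, the median percentile of the strongest one within all peaks of the list was 42.7 in replicate 1 and 41.7 in replicate 2. Over all genes with a TSS peak the medians were 95.8 and 95.3, and 5.82% and 5.47% of those genes were at or below the members' median. By cluster the median signals were 30 and 27 for alpha, 33 and 22 for beta, and 44 and 33 for gamma, in replicates 1 and 2, over the members with a peak in that library. The order of the medians was not the same in both libraries, since alpha was the lowest in replicate 1 and beta in replicate 2.

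**Figure D3:**
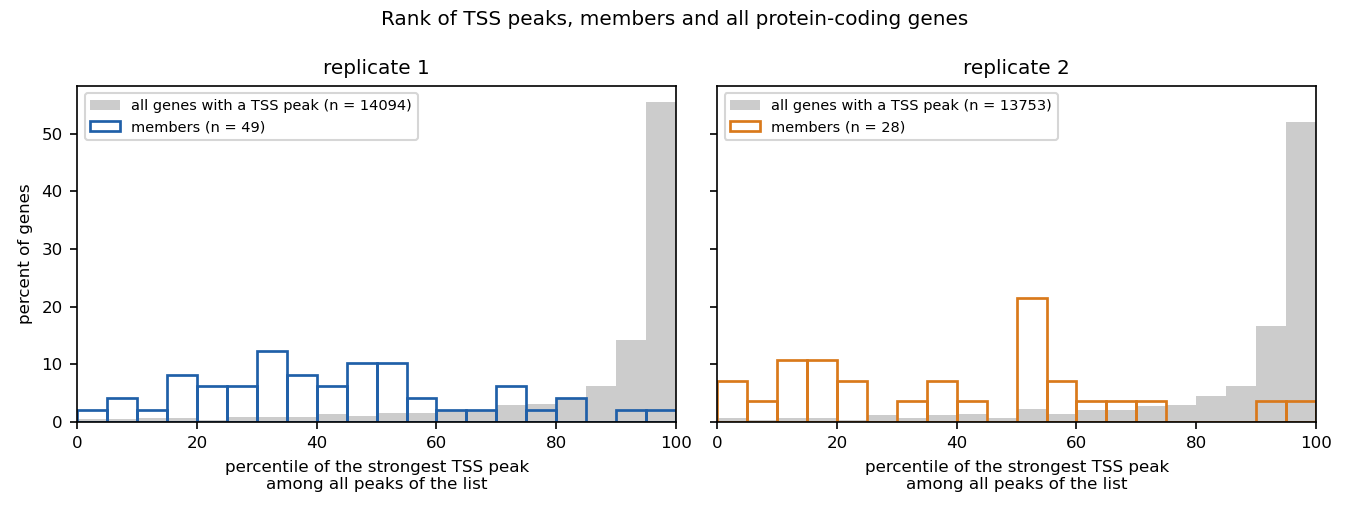
Percent of genes by the percentile of their strongest TSS peak within the list, for all protein-coding genes with a TSS peak (grey; 14094 and 13753 genes) and for members (outlined; 49 and 28) in each replicate. The grey bars pile up above the 90th percentile, while the members' medians are 42.7 and 41.7.

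Whether a member's peak recurred in replicate 2 followed its signal in replicate 1 in about the way it did for all peaks. With a signal below 30, 2 of 8 members had a shared peak, against 22.2% of all peaks of replicate 1. From 30 to 39 it was 8 of 19 against 45.7%, from 40 to 49 it was 9 of 12 against 67.8%, and from 50 to 69 it was 5 of 6 against 84.7%. At 70 and above it was 3 of 4 members, Pcdhac2 being the one without, against 95.7%.

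Protocadherins outside the clusters were open more widely. These genes, such as Pcdh7 and Pcdh19, have promoters of their own with no cluster of alternatives. Of 12 taken as a list, 11 had a shared TSS peak, against 59.1% of all genes. Pcdh15, with 51 and 25 in peaks that did not overlap enough, was the exception. Their signals were highest at Pcdh18 with 136 and 115, Pcdh17 with 133 and 118, Pcdh10 with 131 and 107, Pcdh9 with 128 and 107, and Pcdh8 with 124 and 102. Pcdh19 had 111 and 66, Pcdh7 91 and 78, Pcdh11x 68 and 56, and Pcdh1 65 and 43. Pcdh20 with 47 and 26 and Pcdh12 with 38 and 29 were as low as many clustered members. Pcdhgc3 was the single clustered member in the range of Pcdh17 and Pcdh18.

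Of 12 genes whose products are known to act on the clusters, 11 had a shared TSS peak, against 59.1% of all genes. Ctcf had 131 and 96. Among the cohesin genes Rad21 had 131 and 109, Smc1a 125 and 108, Smc3 134 and 113, and Stag2 106 and 81, and the cohesin loader Nipbl had 119 and 99 and the releaser Wapl 121 and 106. Smchd1, which takes part in silencing the clusters, had 132 and 105, the DNA methyltransferase gene Dnmt3b 100 and 63, Rest, a repressor of neuronal genes, 108 and 77, and Wiz 120 and 96. Stag1 had no peak at its outermost start but counted as open when any annotated TSS was taken.

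Marker genes of the limb and of other cell types were read by the same rule, beside the 59.1% of all genes with a shared TSS peak. Of 9 limb genes 6 had one, a share near that of all genes, among them Hoxd13 with 115 and 83 and Hoxa13 with 118 and 74. Of the others, Pitx1 had no peak in either library. Tbx5 had peaks in replicate 1 alone, the strongest with 59, and Prrx2 had one in replicate 2 alone, with 27. The count with a shared peak was 2 of 5 for cartilage, 3 of 4 for muscle and 1 of 3 for epidermis. It was 1 of 3 for endothelium, 2 of 4 for Schwann cells and 6 of 10 for neurons. The counts of some short lists moved with the library: cartilage had 5 of 5 in replicate 1 and 4 of 5 in replicate 2, endothelium 1 and 3 of 3, and epidermis 1 and 2 of 3. These counts do not single out a tissue. The 6 neuronal ones, Rbfox3, Tubb3, Snap25, Syt1, Dcx and Syp, had signals from 39 to 76 in replicate 1 and 21 to 61 in replicate 2. Neurog2 had no peak in either library, and Stmn2, Elavl3 and Neurod1 had one in replicate 2 alone. The part of any of these cell types in the members' peaks was not tested.

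The members' promoters were poor in G and C and held a middling number of CpG pairs, which are rare in most of the genome and dense at many active promoters. The ratio of observed to expected CpG in the 500 bp windows had a median of 0.682 in the alpha cluster, 0.594 in the gamma cluster and 0.378 in the beta cluster, against 0.552 over all genes. The median GC content was 45.4%, 47.1% and 41.3% against 54.7%. In the fifth of genes with a ratio from 0.655 to 0.803, 92.7% of all genes but 7 of 19 members had a shared peak. In the fifth from 0.399 to 0.655 it was 77.1% of genes and 15 of 23 members, and in the fifth from 0.178 to 0.399 it was 25.0% of genes and 4 of 13 members. In replicate 1 alone these counts were 14, 22 and 12 against 96.8%, 85.0% and 32.6%. The share of open members thus did not rise with CpG content as it did over all genes: alpha members had the highest median ratio of the clusters and the smallest share with a shared peak.

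Variable exons resemble one another, so short reads from some of them may have no single place. As a measure of this, the share of the 32-base words of each window that occur once in the main chromosomes of GRCm38.p6 was counted. Its median was 78.0% in the 12 alpha members that are not C-type, 98.5% in the gamma cluster and 100% in the beta cluster and in 456 other genes of the chromosome. The alpha members with no peak had 71.3% to 90.6%, and those with a shared peak, Pcdha3, Pcdha11 and Pcdha12, had 76.6% to 77.2%. Pcdhgb4, with 71.0%, had a shared peak, and Pcdhgc5, with 100%, had none. The read length is not given in the sources used here, and the part of repeated sequence in the alpha counts was not tested.

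Short letter patterns of the promoters were counted as a description, since a match is not a bound site. Most variable promoters are known to carry a conserved element with the core CGCT, and these letters stood on the sense strand within 150 bp upstream of the TSS in 47 of 57 members (82.5%) against 34.4% of all genes. Those without were Pcdha5, Pcdha10, Pcdhac2, Pcdhb1, Pcdhb13, Pcdhb17, Pcdhb22, Pcdhga12, Pcdhgc4 and Pcdhgc5. Of the 7 members whose strongest peak of replicate 1 lay further downstream, 6 were without the core, and Pcdha12 had it. The longer form TGGCGCT stood there in 17 members, all of them among the 22 of the beta cluster, against 0.971% of all genes. Relative to the TSS it started between -131 and -29 bp, with a median of -52 bp. Of those 17 genes, 16 had a peak in replicate 1 and 7 in replicate 2. These shares are near those of the whole beta cluster, 20 of 22 (90.9%) and 9 of 22 (40.9%). The peak covered the motif in all 16 and all 7. Peaks of 150 bp centred just before the TSS span much of this stretch, so the cover does not tie the motif to the peaks. Both patterns were chosen after the sequences had been seen.

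Other patterns were searched on both strands of the whole window. TATAAA stood in 52.6% of members against 32.3% of all genes. GGGCGG, the core of the GC box, stood in 13 of 14 alpha members, 7 of 21 gamma members and none of the 22 beta members, against 60.4% of all genes. The consensus of CTCF was in no member's window, against 1.03% of all genes, and with 1 mismatch allowed it was in 3, at Pcdha5, Pcdhb8 and Pcdhgb1, against 11.9%. The consensus of REST was in none, against 0.0638% of all genes. No match means only that these letters are not in the windows.

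Exact matches of this CTCF consensus were found inside variable exons, past the edge of the 500 bp windows, and their strand changed between the clusters. Whether CTCF binds the promoters through other letters was not tested. In the alpha cluster 6 members, Pcdha1, Pcdha4, Pcdha6, Pcdha7, Pcdha8 and Pcdha12, had 1 each, all 6 on the plus strand and all starting 537 to 581 bp after the TSS. In the beta cluster 13 of 22 members had 1 each, all 13 on the minus strand and starting 2271 to 2810 bp after the TSS. In the variable exons of the gamma cluster there was none. CTCF bound at a pair of sites that point towards each other is known to hold loops, which is why the strand is given. Neither binding nor looping at these matches was tested.

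Most of these exonic matches lay in no called peak. The one at Pcdha12 (chromosome 18, 37020686 to 37020697) lay in the shared peak with 40 and 27 described above. The one at Pcdha4 (36953222 to 36953233) lay in a peak of replicate 1 alone, with a signal of 32. None of the 13 in the beta cluster was in a peak of either library. Over the genome 46.1% of 13119 matches lay in a shared peak, 52.2% in a peak of replicate 1 and 46.9% in one of replicate 2. The 32-base words were counted in the TSS windows only, which do not reach these exonic matches. The part of repeated sequence in their missing peaks was not tested.

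Between the alpha and beta clusters and in the downstream flank, but not in the upstream flank, the few matches lay in shared peaks. The 1 match between the alpha and beta clusters, on the minus strand at 37217468 to 37217479, lay in a shared peak with 65 and 42 (37217396 to 37217545). Some 0.808 kb further on stood the second strongest shared peak between the first and last member outside the members' windows, at 37218276 to 37218425 with 124 and 79. It is 46.6 kb upstream of Pcdhb1, and in the annotation it lies in an intron of 3 long read-through gene models. An enhancer with CTCF sites is known downstream of the alpha constant exons, but these peaks were not matched to it here. Past the gamma cluster, 3 further matches, 2 on the minus strand in introns of Diaph1 and 1 on the plus strand in an intron of Arap3, all lay in shared peaks. The single match in the upstream flank, in an intron of Hars2, was in a peak of replicate 1 alone. Of the 85 shared peaks of the locus, 5 held the consensus (5.88%), against 4.74% over the genome. With 1 mismatch allowed the order turned, with 9.41% in the locus against 14.4%, and of the locus peaks of one library 4.22% (replicate 1) and 5.0% (replicate 2) held the exact consensus.

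**Figure D4:**
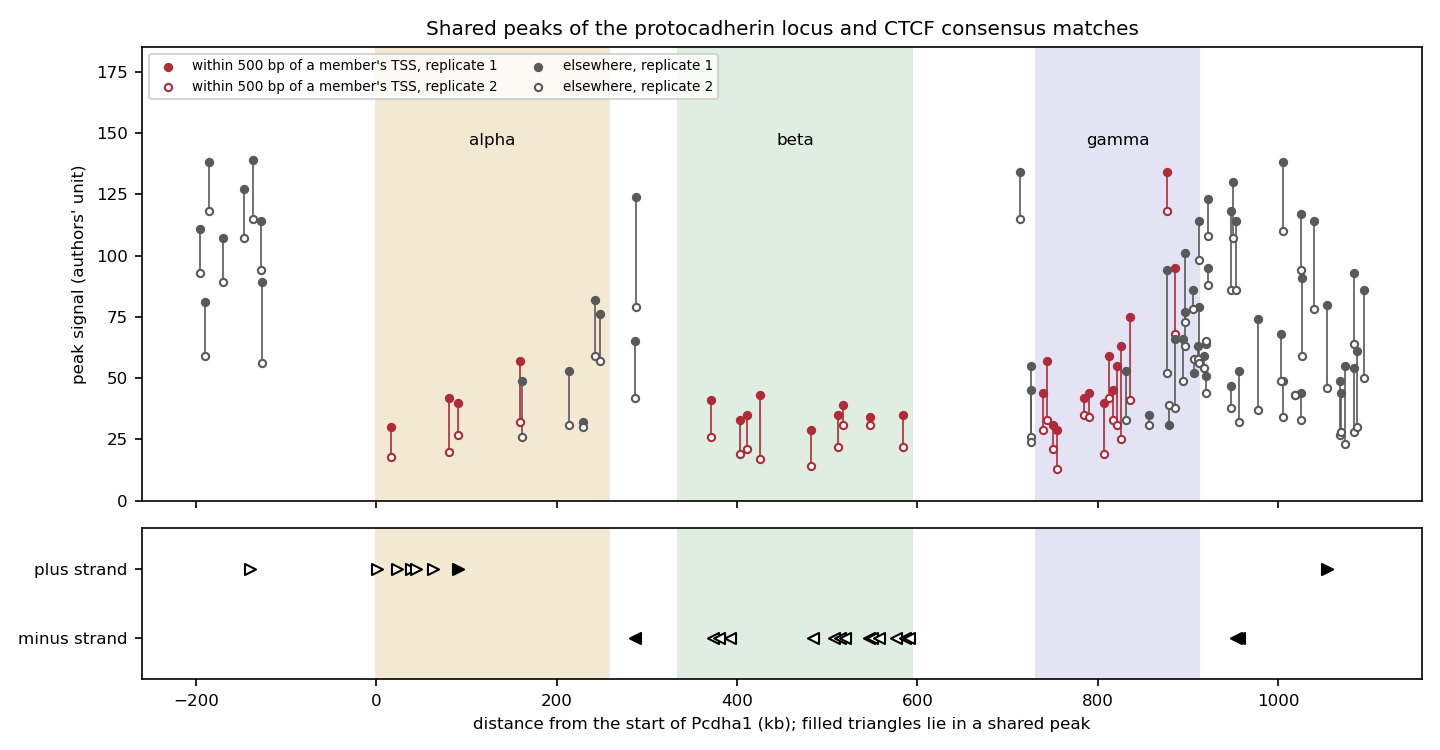
Shared peaks by distance in kb from the start of Pcdha1, with the signal in replicate 1 (filled) and replicate 2 (open) joined by a line, red within 500 bp of a member's TSS and grey elsewhere. The lower panel gives the CTCF consensus matches by strand: 6 on the plus strand in alpha exons and 13 on the minus strand in the beta cluster, of which 1 lies in a shared peak.

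Shared peaks were unevenly spread along the locus. The beta cluster held 9 in 259.5 kb, or 3.47 per 100 kb, and all 9 lay at members' starts. The alpha variable exons held 6 (2.77 per 100 kb), 4 of them in members' windows, that of Pcdha12 inside its variable exon. The gamma variable exons held 19 (11.8 per 100 kb), against 4.68 over the genome and 5.09 over the chromosome. Only 5 of those 19 lay outside the members' windows, or 3.12 per 100 kb. The densest stretch was that from the end of the last gamma variable exon to the end of the constant exons, with 6 in 19.7 kb (30.4 per 100 kb). The alpha counterpart held 3 in 41.1 kb (7.29 per 100 kb). The gaps between alpha and beta and between beta and gamma held 2 and 3. The downstream flank held 29 in 200 kb (14.5 per 100 kb) and the upstream flank 8 (4.0 per 100 kb). Between the first and the last member, 43.6% of the 110 peaks of replicate 1 were shared, against 61.2% over the genome.

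Around the constant exons several peaks were stronger than at most variable promoters. In introns before the last gamma exon, shared peaks stood at 37826636 to 37826785 with 101 and 73, at 37835676 to 37835825 with 86 and 78, and at 37826296 to 37826445 with 77 and 63. A further one with 66 and 49 lay on an exon at 37824976 to 37825125, and one with 63 and 58 on the last exon at 37841496 to 37841645. Past the variable exon of Pcdhac2 and before the end of the alpha constant exons, introns held shared peaks. They stood at 37172316 to 37172465 with 82 and 59 and at 37178436 to 37178585 with 76 and 57. Inside the variable exon of Pcdhgc3, 0.646 kb after the TSS and so outside its window, a peak at 37806936 to 37807085 had 94 and 52. Only Pcdhgc3 and Pcdhgc4 had a higher signal than the strongest of the alpha intron peaks in both libraries.

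Past the last gamma exon, Diaph1, which encodes a formin that builds actin filaments, held a run of strong peaks. Ranked by mean percentile over both libraries, the highest outside gene starts in the downstream flank were at 37880256 to 37880405 with 130 and 107, at 37852176 to 37852325 with 123 and 108, and, just past the gamma cluster at 37842156 to 37842305, with 114 and 98. The first and second are in introns of Diaph1 and the other in no gene. A control region of the clusters is known downstream of the gamma genes, but these peaks were not matched to it here.

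Unrelated genes in and beside the clusters had strong starts. Taf7, a subunit gene of a general transcription factor that lies between the beta and gamma clusters, had 134 and 115 (37644156 to 37644305), the same signal in replicate 1 as Pcdhgc3. Slc25a2 beside it had no peak. In the upstream flank 7 of 8 genes had a shared TSS peak, against 59.1% of all genes. Their signals were 107 to 139 in replicate 1 and 89 to 118 in replicate 2. Ndufa2 and Ik were counted by the same peak, as were Hars and Hars2. Dnd1, a germ cell gene, had no peak. In the downstream flank all 5 had a shared TSS peak, from 49 and 27 at Arap3 to 138 and 110 at Diaph1. Hdac3 and Rell2 had the same strongest peak. The low signals of the members were thus not shared by most genes on either side.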

How the data were processed

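Per the labels, DNase-seq peaks and hotspots of both libraries were made on mm10. No source used here names the aligner or caller. The peak signal is the authors' deposited value, a whole number whose scaling is not given, and the hotspot value is the authors' −log10 q, from 1.3 to 100. Lists were called per library, so signals were compared within a list, by percentile. Depth is unknown. Peaks on the mitochondrial genome and unplaced sequence were left out. Shared peaks carry the coordinates of replicate 1. Genes came from GENCODE M21, sequence from GRCm38.p6, and CpG, motifs and 32-base words were counted with Python 3.11.15, numpy 2.4.6 and pandas 2.3.3. The overlap and motif steps were tested on simulated data. The members, lists and rules were chosen with earlier results of these data known. Every member could be named, as could the 10 strongest shared peaks outside the members' windows, shared peaks with the CTCF consensus, and the listed genes. The motifs CGCT and TGGCGCT were added later. Alternatives were windows of 250 and 1000 bp, any annotated TSS, the variable exon's 5′ end, a 1 bp overlap, replicate 2's coordinates, the 50000 strongest peaks, hotspots, flanks of 100 kb, 1 mismatch and each library alone. No sequence of the members is printed.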

Additional observations from a re-analysis of the deposited data

How the results depend on the processing

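The count of 27 members with a shared TSS peak was 25 to 28 with windows of 250 or 1000 bp, any annotated TSS, the variable exon's start, a 1 bp overlap, replicate 2's coordinates or hotspots. The 250 bp window lost Pcdha12 and Pcdhga12, and the 1000 bp window and hotspots added Pcdhac2. Among the 50000 strongest peaks of each list the count was 2, Pcdhgc3 and Pcdhgc4, with 0 in the alpha, 0 in the beta and 2 in the gamma cluster. With one library alone it was 28 to 49, and 5 to 9 for alpha, 9 to 20 for beta and 14 to 20 for gamma, the higher value without replicate 2 each time. The 58 shared peaks of the locus outside members' windows became 37 with flanks of 100 kb, 33 among the 50000 strongest, and 70 to 110 with one library alone. The share of shared peaks with the CTCF consensus was 9.41% with at most 1 mismatch, below the genome's 14.4%, and 4.22% to 5.0% of one library's peaks. The CTCF consensus stood in 3 members' windows with 1 mismatch and in 6 with windows of 1000 bp, which reach the alpha exon matches. The counts of non-clustered protocadherins (11) and regulators (11) stayed within 1.5 times under every alternative run on them. No paired analysis was possible because there is 1 group. Depth limits every absence, since no read counts were used.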

Other observations

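Pcdhgb8, which the annotation calls a polymorphic pseudogene and which was left out of the members, had a shared peak at its start with 53 in replicate 1 and 33 in replicate 2 (chromosome 18, 37761556 to 37761705), as strong as Pcdhgb7 with 55 and 33. Replicate 1 had 2 more peaks within its window, with 47 and 32.

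With 1 mismatch allowed, the CTCF consensus stood on the plus strand near the same place, within 50 bp of the range from 537 to 581 bp after the TSS, in 8 alpha members. In the beta cluster 18 of 22 variable exons had such a match near the place of the exact ones on the minus strand. Over the whole exons not all such matches had the strand of the exact ones: alpha exons held 11 on the plus and 2 on the minus strand, and beta exons 19 on the minus and 2 on the plus strand. In the gamma cluster 3 exons had one anywhere, all 3 on the minus strand.

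The read-through models Gm42416, Gm37013 and Gm37388, which start in the alpha cluster and span the locus, had no shared peak at their starts. Gm42416 had 2 peaks in replicate 1, the higher with 32, and its start lies 93 bp from that of Pcdha4, so these peaks cannot be given to one of the genes.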
